A study of Mus musculus with 4 samples.

Results

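The integrated stress response genes described here are 10 genes, Atf4, Atf5, Ddit3, Ddit4, Trib3, Chac1, Ppp1r15a, Asns, Cebpb and Vldlr, out of 19087 genes named on the arrays. They were listed by symbol, as genes of the response led by the transcription factor ATF4. No measured value enters that rule, but the list was drawn up with earlier results of these data known. On the array 12 of 45220 spots belonged to them, with 2 spots each for Cebpb and Vldlr and 1 spot for each of the other genes. The RNA came from mouse fibroblast cybrids at passage 3, grown in high-glucose medium with serum. A cybrid joins the nucleus of a recipient line to the mitochondria of a donor. The control cybrid, LMEB3(mtB6), is labelled with the strain C57BL/6J, and the cybrid called mutant, LMEB3(mtBALB), with BALB/cJ. Both were grown alike, and no drug or other treatment is named. Each of 4 2-colour arrays held an mtB6 and an mtBALB sample of the same replicate number, called biological replicates in the labels. Independent clones are mentioned in the title, but the clone behind each replicate is not given. The mtB6 RNA carried Cy5 on replicates 1 and 3 and Cy3 on replicates 2 and 4.

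In the integrated stress response, kinases that sense amino acid shortage, misfolded protein, viral RNA, heme lack or mitochondrial faults phosphorylate the initiation factor eIF2. General protein synthesis then drops, while ATF4 is made from its transcript more efficiently, so that ATF4 activity can change with little change in Atf4 transcript. ATF4 turns on genes of amino acid synthesis and transport, further transcription factors, and genes that end the response, and failing mitochondria are known to trigger it in cultured mammalian cells. The comparison asks whether cells that differ in their mitochondrial donor differ in the transcripts of these genes.

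Every value below is the deposited ratio of the lines, read as log2, or a mean of such ratios, and no level of a gene in either line was available. The sources used here do not say which line is the numerator. A value is therefore given by its side of 0, and neither line is named as the higher. The ratios were read as already turned for the dye swap, which is an assumption. If they were not, the line and dye terms of the fit would change places. Medians over all spots lay between -0.0033 and 0.0051 on the arrays. A spot is called dim on an array where at least 3 spots of that array shared its exact value, which held for 53.7% to 56.0% of spots. The word is a label for such shared values. No spot intensity was available, so whether these spots were faint was not checked. A never dim spot, dim on none of the arrays, was present for 9 of the 10 genes, whereas both Vldlr spots were dim on all 4. In bulk RNA, fewer cells that make a transcript and less transcript per cell cannot be told apart. Since ratios carry no level, the fibroblast label could not be checked against marker genes. Of all genes, 50.5% had a mean below 0. The means of 5 of 10 fibroblast markers, 6 of 6 measured leukocyte markers and 5 of 5 epithelial markers were below 0. Their medians were -0.01, -0.09 and -0.08, 3 of the leukocyte markers and 0 of the epithelial markers had a never dim spot, and their part in the results was not tested. Single markers lay farther from 0 than these medians. Pdgfrb, a fibroblast receptor, had a mean of -0.47 and Lyz2, the macrophage lysozyme, had -0.32, both below 0 on all 4 arrays, and Col1a1, a collagen, had 1.11. Their unadjusted p values in limma were 0.0170, 0.0162 and 0.0297, and the adjusted p of each was 0.99967. These 3 were picked after their values were seen.

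None of the 10 genes differed between the lines by more than the spread between pairs allows for in a test over all genes. In limma, with a term for the line and a term for the dye, 0 of 10 passed an adjusted p of 0.05, as did 0 of 19087 genes (0%). The smallest adjusted p over all genes was 0.99967. Before adjustment, 694 genes had p under 0.05, among them 2 of the 10, Ppp1r15a and Ddit4, both on the negative side. Of all genes, 2.05% met that threshold on the negative side and 1.59% on the positive side, where none of the 10 did. The mean ratio was below 0 for 8 of 10 genes against 50.5% of all genes, and the median of the means was -0.15 against -0.00105 for all genes. Among genes with a never dim spot, 7 of 9 were below 0 against 52.9%, and 2 of 9 had an unadjusted p under 0.05 on the negative side against 3.42%.

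**Figure D1:**
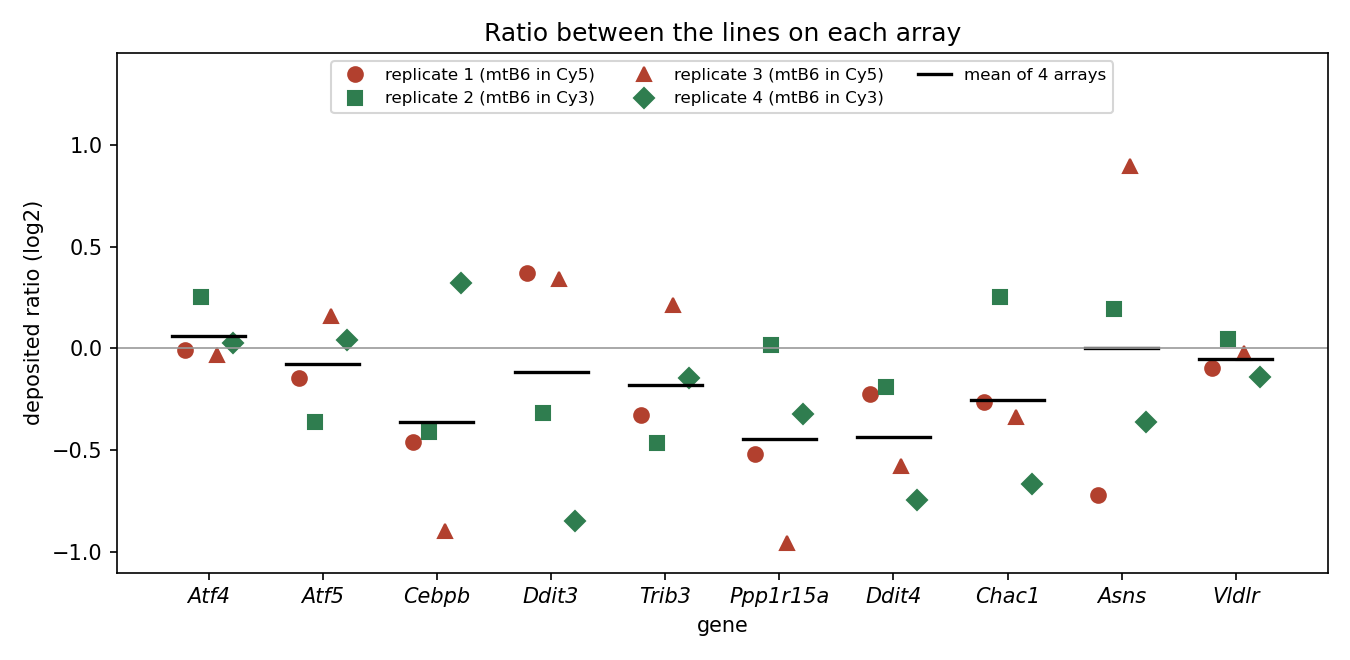
Deposited log2 ratio of each of the 10 genes on each of the 4 arrays, with colour for the dye that carried the mtB6 RNA, shape for the replicate and a bar for the mean of the 4 arrays. Ddit4 is the gene with all 4 points below 0, and Asns spans from -0.72 to 0.90.

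The arrays differed in how many of these genes lay on the negative side. Of the 10 genes, 9, 5, 6 and 7 were below 0 on replicates 1 to 4, where the shares of all genes were 49.8%, 51.3%, 49.1% and 51.2%. The medians of the 10 genes were -0.24, -0.09, -0.03 and -0.23 on replicates 1 to 4. Only Ddit4 was below 0 on all 4 arrays, as were 4.65% of all genes, and none of the 10 was above 0 on all 4, as were 4.37%.

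Among the transcription factors, the transcript of Atf4 itself had the mean nearest to 0. Its ratios were -0.01, 0.25, -0.03 and 0.03 on replicates 1 to 4, so that replicate 2 was high and the other arrays lay near 0. The mean was 0.06 ± 0.13 (SD, n = 4), with a 95% interval of -0.12 to 0.24 in limma (adjusted p = 0.99967). Atf5, a related factor that is also controlled through its translation and takes part in the response of mammalian cells to misfolded mitochondrial protein, had -0.15, -0.36, 0.16 and 0.04. The signs were mixed, and the mean was -0.08 ± 0.23 (SD, n = 4; interval -0.35 to 0.20). Without replicate 1 the Atf5 mean was 0.00, and without replicate 2 it was 0.02. Means without a replicate weigh the dye orientations equally. In those fits the array left alone in its orientation is fitted exactly. Their p values therefore rest only on the spread between the arrays of the other orientation, moderated over all genes.

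Cebpb encodes C/EBP-beta, a bZIP factor that can pair with ATF4. Averaged over its spots it had -0.46, -0.41, -0.89 and 0.32 on replicates 1 to 4, with 3 arrays below 0 and replicate 4 above. The mean was -0.36 ± 0.50 (SD, n = 4; interval -0.78 to 0.06). Its spots disagreed on replicate 4. The spot that was dim on 1 array had -0.20, -0.43, -0.96 and -0.04, and the never dim spot had -0.71, -0.39, -0.82 and 0.69. Their means were -0.41 and -0.31. Without replicate 4 the gene's mean was -0.54, and without replicate 2 it was -0.18.

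Ddit3 encodes CHOP, a factor downstream of ATF4 that promotes cell death under lasting stress. It had 0.37, -0.32, 0.34 and -0.84 on replicates 1 to 4. Both arrays with mtB6 in Cy5 were above 0 and both with mtB6 in Cy3 were below, so that the sign followed the dye. The mean between the lines was -0.11 ± 0.58 (SD, n = 4), with a fitted interval of -0.40 to 0.17. The mean was 0.02 without replicate 4. For the dye term the value was 0.47, with an unadjusted p = 0.0095 and an adjusted p = 0.546 in limma. Of all genes, 8.97% had an unadjusted p under 0.05 for the dye term and 0% passed an adjusted p of 0.05. Signs followed the dye on all 4 arrays in 2 of 10 genes, Ddit3 and Atf4, and in 21.3% of all genes.

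**Figure D2:**
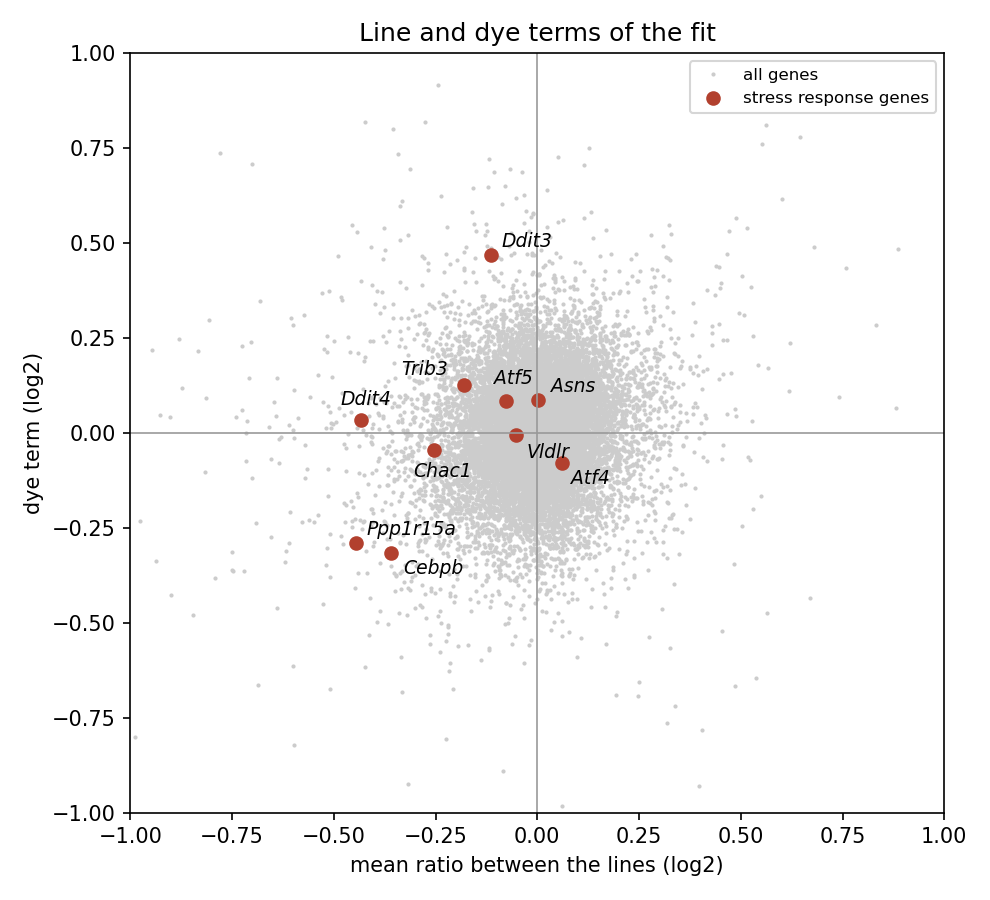
Mean log2 ratio between the lines (x axis) against the dye term of the same fit (y axis) for all genes in grey, of which 19 lie outside the axes, and for the 10 genes in red. Of the 10, Ddit3 lies highest on the dye axis at 0.47, and Ppp1r15a and Ddit4 lie farthest to the left at -0.45 and -0.43.

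The other 6 genes are targets of the response. Promoter windows of 300 bases, from 250 before to 50 after a transcript start, were taken from RefSeq on GRCm38.p6, and all 10 genes matched with 12 windows. Letters of the composite C/EBP-ATF element, searched as TGATGNAA on both strands, were found in 4 of the 12 windows, of Trib3, Chac1, Asns and Vldlr, and in 3.97% of 32851 windows. The cyclic AMP response element, searched as TGACGTCA, which reads the same on both strands, was found in the window of Ppp1r15a and in 1.79% of all windows. The 2 motifs did not overlap in these windows. A match says only that the letters are present. The windows with a match are shown for the targets whose spots were never dim, since these are the known kinds of element through which ATF4 and related factors act. They are written along the strand of the gene, with the match in capitals.
Chac1: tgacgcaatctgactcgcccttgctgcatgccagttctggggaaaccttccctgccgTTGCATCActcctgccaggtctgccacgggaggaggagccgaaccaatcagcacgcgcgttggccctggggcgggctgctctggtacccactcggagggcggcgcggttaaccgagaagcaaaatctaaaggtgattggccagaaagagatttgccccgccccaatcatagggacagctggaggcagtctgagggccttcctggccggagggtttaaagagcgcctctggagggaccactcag
Trib3: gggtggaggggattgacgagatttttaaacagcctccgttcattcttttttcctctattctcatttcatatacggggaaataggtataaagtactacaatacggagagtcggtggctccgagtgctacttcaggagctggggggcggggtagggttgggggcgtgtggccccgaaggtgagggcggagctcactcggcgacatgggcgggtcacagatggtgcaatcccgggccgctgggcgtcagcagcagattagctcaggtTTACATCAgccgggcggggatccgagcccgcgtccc
Asns: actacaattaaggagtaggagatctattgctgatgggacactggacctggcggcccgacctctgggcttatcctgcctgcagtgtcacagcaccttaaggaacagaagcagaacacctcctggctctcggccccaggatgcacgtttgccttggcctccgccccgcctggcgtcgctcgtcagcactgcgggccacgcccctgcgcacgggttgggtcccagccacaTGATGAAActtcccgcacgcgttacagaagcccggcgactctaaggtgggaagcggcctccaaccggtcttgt
Ppp1r15a: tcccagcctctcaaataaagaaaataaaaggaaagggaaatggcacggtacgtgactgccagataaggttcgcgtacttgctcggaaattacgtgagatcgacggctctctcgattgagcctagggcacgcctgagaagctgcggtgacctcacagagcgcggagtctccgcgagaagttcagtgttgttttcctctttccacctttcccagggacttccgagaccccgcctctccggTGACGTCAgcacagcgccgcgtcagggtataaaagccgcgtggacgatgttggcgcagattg
They lie at chr2:119350992-119351291 (plus strand), chr2:152344011-152344310 (minus) and chr7:45526219-45526518 (minus) for Chac1, Trib3 and Ppp1r15a, and at chr6:7693160-7693459 (minus) for Asns. Counted from the transcript start, the match begins at -193 in Chac1, -23 in Asns, -12 in Ppp1r15a and 15 in Trib3. Those of Chac1 and Trib3 are on the reverse strand.

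With the ratios read as turned, Ppp1r15a and Ddit4 had the means farthest from 0 among the 10. With ratios read as not turned, their values were -0.29 and 0.03, and Ddit3 was farthest at 0.47, followed by Cebpb at -0.32. Ppp1r15a encodes GADD34, which brings a phosphatase to eIF2 and so ends the response. It had -0.52, 0.01, -0.96 and -0.32 on replicates 1 to 4, with replicate 3 lowest and replicate 2 at about 0. The mean was -0.45 ± 0.40 (SD, n = 4), a 1.36-fold difference between the lines with a 95% interval of 1.11 to 1.67. In limma the unadjusted p was 0.0128, the adjusted p was 0.99967, and 131 of 19087 genes had a smaller p. Without replicate 4 the mean was -0.36 and the unadjusted p was 0.0738, with an adjusted p of 0.99984.

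Ddit4 encodes REDD1, an inhibitor of the growth kinase mTORC1. It had -0.22, -0.19, -0.58 and -0.75 on replicates 1 to 4, all below 0, with replicates 3 and 4 the lowest. The mean was -0.43 ± 0.27 (SD, n = 4), a 1.35-fold difference with a 95% interval of 1.07 to 1.70. Its dye term was 0.03. In limma the unadjusted p was 0.0227 and the adjusted p 0.99967. The mean was -0.34 without replicate 3 and -0.29 without replicate 4 (unadjusted p = 0.0737 and 0.0882, adjusted p = 0.649 and 0.99984 in limma).

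**Figure D3:**
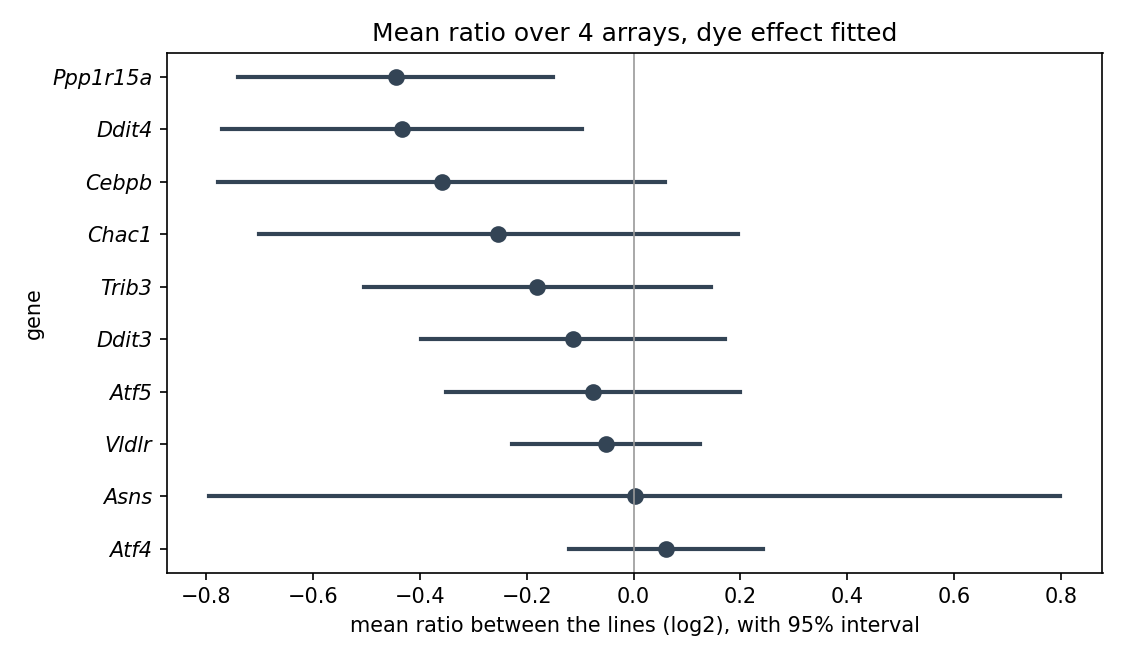
Mean log2 ratio between the lines for the 10 genes (points) with 95% intervals from the limma fit (lines), ordered by the mean. The intervals of Ppp1r15a and Ddit4 lie below 0 before any correction for the number of genes, and the interval of Asns is the widest, from -0.79 to 0.80.

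Chac1 encodes an enzyme that breaks down glutathione and is strongly induced by ATF4 in stressed cells. It had -0.26, 0.25, -0.34 and -0.67 on replicates 1 to 4, with replicate 2 on the other side of 0. The mean was -0.25 ± 0.38 (SD, n = 4; interval -0.70 to 0.20). It rested on single arrays, at -0.48 without replicate 2 and -0.02 without replicate 4. Trib3 encodes a pseudokinase that holds back the kinase AKT and ATF4 itself. It had -0.33, -0.47, 0.22 and -0.14, with replicate 3 alone above 0. The mean was -0.18 ± 0.29 (SD, n = 4; interval -0.50 to 0.14), and without replicates 1, 2 and 3 it was -0.04, -0.10 and -0.32.

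Asns, the synthetase of asparagine and a classic target of the amino acid arm, had the widest spread of the 10. Its ratios were -0.72, 0.20, 0.90 and -0.36 on replicates 1 to 4. Replicate 3 was on the positive side and replicate 1 on the negative side, although both have the same dye orientation. The mean was 0.00 ± 0.71 (SD, n = 4). Its 95% interval of -0.79 to 0.80 was wider than the median half-width of 0.25 for genes with a never dim spot, since the half-width was 0.80. The mean was -0.40 without replicate 3, 0.41 without replicate 1, -0.14 without replicate 2 and 0.14 without replicate 4. Vldlr, a receptor for lipoproteins that ATF4 can induce through the kinase PERK, had -0.09, 0.05, -0.02 and -0.14, all near 0 on dim spots. Its mean was -0.05 ± 0.08 (SD, n = 4; interval -0.23 to 0.12), with spot means of -0.12 and 0.01.

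The genes ranked by their mean ran from Ppp1r15a at -0.45 through Ddit4, Cebpb, Chac1, Trib3, Ddit3, Atf5, Vldlr and Asns to Atf4 at 0.06. The order holds for ratios read as turned. Neighbours in it had intervals that overlapped, and the differences between genes were not tested. The root mean square ratio is taken about 0, so it counts a shift of all arrays as well as spread. For 7 of 10 genes it was above the median of 0.25 for genes with a never dim spot. The 3 genes with the largest were Asns at 0.61 and Ppp1r15a and Cebpb, both at 0.57. By SD, Ddit3 at 0.58 followed Asns, ahead of Cebpb at 0.50 and Ppp1r15a at 0.40. Among 9478 other named genes with a never dim spot, the closest to Asns over the 4 arrays by root mean square difference were Snx14, Chil3 and C1galt1, at 0.08, 0.12 and 0.13. Those closest to Ppp1r15a were Igflr1, Gtf2h1 and Klf9, at 0.07, 0.14 and 0.16. For Cebpb they were Rnd3, Serf1 and Klf7, at 0.14, 0.17 and 0.19. These are the smallest of many differences over only 4 values, and whether these genes vary together was not tested. Among the 10 genes themselves, Atf4 and Vldlr had the smallest difference at 0.14, followed by Atf5 and Trib3 at 0.14. Atf5 and Vldlr differed by 0.24, and Ddit4 and Chac1 by 0.25. Atf4 and Vldlr both lay near 0, with root mean square ratios of 0.13 and 0.09, and both Vldlr spots were dim.

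Upstream of ATF4, the kinases of eIF2 showed no shared side. Eif2ak3, or PERK, which senses misfolded protein in the endoplasmic reticulum, had a mean of 0.08 ± 0.12 (SD, n = 4). Eif2ak4, or GCN2, the sensor of amino acid shortage, had 0.09 ± 0.21, and Eif2ak1, or HRI, the heme-regulated kinase, had -0.02 ± 0.09. Eif2ak2, or PKR, which binds double-stranded RNA and is induced by interferon, had 0.80, -0.43, -0.94 and 0.29 on replicates 1 to 4. Replicates 1 and 3 lay on opposite sides around its mean of -0.07 ± 0.77, whereas the other kinases lay between -0.14 and 0.39. The share of all genes with a mean below 0 was 50.5%. Of 6 genes listed as kinase activators and mitochondrial relay, 1 had a mean below 0 and 5 above, with a median of 0.04. Despite that heading, the list also holds genes that restrain a kinase, so its side is not that of activators alone. Dnajc3, a cochaperone that restrains PERK and PKR, had 0.09 ± 0.20, and Gcn1, which activates GCN2, had 0.06 ± 0.18. Of the genes named in this paragraph, 0 passed in limma at an adjusted p of 0.05, and none had an unadjusted p under 0.05.

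Of 8 subunits of eIF2 and its exchange factor eIF2B, 7 were measured, with a median of -0.01 and 4 below 0. The one not measured was Eif2s1, the alpha subunit of eIF2, on which the kinases act. Eif2s3x, the gamma subunit of eIF2, had 0.13 ± 0.12, and Eif2b5, the catalytic subunit of eIF2B, had 0.15 ± 0.18, both above 0 on each array. Of 4 phosphatase partners, 2 were below 0. Ppp1ca, a catalytic subunit of protein phosphatase 1, had -0.17 ± 0.29, and Ppp1r15b, the constitutive counterpart of Ppp1r15a, had -0.10 ± 0.25 (SD, n = 4 each). No subunit or partner had an unadjusted p under 0.05.

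Of 5 other transcription factors, 4 had a mean below 0, where the share of all genes was 50.5%. Nupr1, a stress-induced chromatin protein, had -0.57, 0.39, -0.77 and -0.34 on replicates 1 to 4, and Jdp2, a repressor of AP-1, had -0.64, -2.20, -0.03 and 0.14. Of 9 measured targets of stress and secretion, 7 had a mean below 0, with a median of -0.09, and 7, 4, 5 and 6 were below 0 on replicates 1 to 4. Eif4ebp1, a brake on translation initiation, had -0.53, 0.12, -0.27 and -0.32. Fgf21, a secreted metabolic hormone, had a mean of -0.23 ± 0.44 (SD, n = 4) on spots that were each dim on at least 2 arrays. None of these genes had an unadjusted p under 0.05 in limma.

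**Figure D4:**
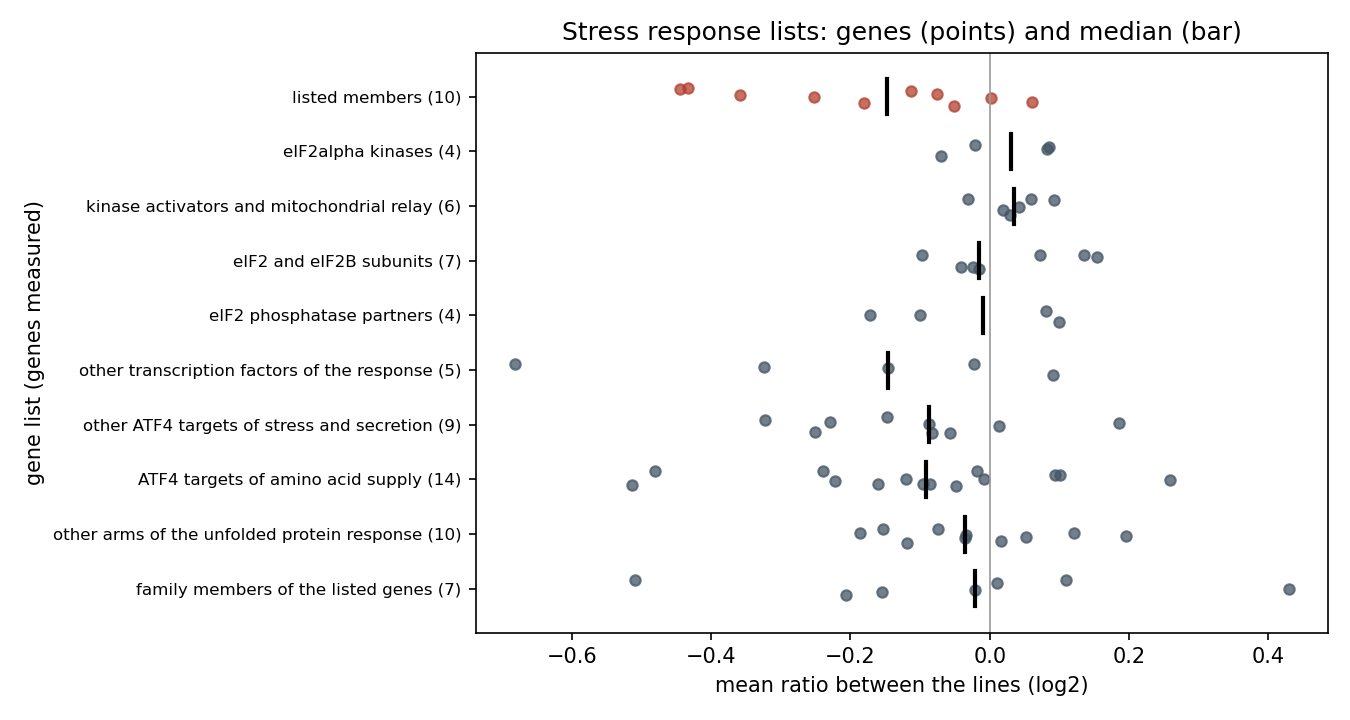
Mean log2 ratio over 4 arrays for each gene (points) of the 10 listed genes and of the pathway lists, with the median of each list as a bar and the number of genes measured in brackets. The median of the 10 genes is -0.15, and the medians of the other lists lie between -0.15 and 0.04.

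The ATF4 targets of amino acid supply, which include enzymes of serine, proline, cysteine and folate metabolism, Pck2 and amino acid transporters, lay on different sides of 0 on different arrays. On replicate 1, 13 of 14 were below 0, on replicate 4, 12 of 14 were, and on replicate 3, 13 of 14 were above 0, with 8 below 0 on replicate 2. Their medians were -0.21, -0.06, 0.17 and -0.25 on replicates 1 to 4, and the medians of all genes were within 0.01 of 0 on each array. The sides did not follow the dye orientation, which replicates 1 and 3 share. Cth, which makes cysteine and was picked after its values were seen, had -1.93, 0.15, 0.43 and -0.57. The 2 of smallest p were Pck2, the mitochondrial PEP carboxykinase, and Slc6a9, a glycine transporter. Pck2 had -0.10, -0.47, 0.17 and -0.50, a mean of -0.22 ± 0.32. No other gene of this list had an unadjusted p under 0.05, and that of Pck2 was 0.0339 in limma, with an adjusted p of 0.99967. That count was 0 without replicate 1 or 2. It was 5 without replicate 3, with Pck2 among them, and 1 without replicate 4, where the gene was Psph. The share of all genes at that threshold in limma also moved. It was 8.27%, 2.23%, 8.27% and 2.46% without replicates 1 to 4, against 3.64% with all arrays. Slc6a9 had -0.96, -0.87, 0.07 and -0.30, a mean of -0.51 ± 0.48 (SD, n = 4). The means were below 0 for 11 of 14 genes, where the share of all genes was 50.5%. Without replicates 1 to 4 they were below 0 for 4, 13, 11 and 8, so that the count depended on replicate 1.

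**Figure D5:**
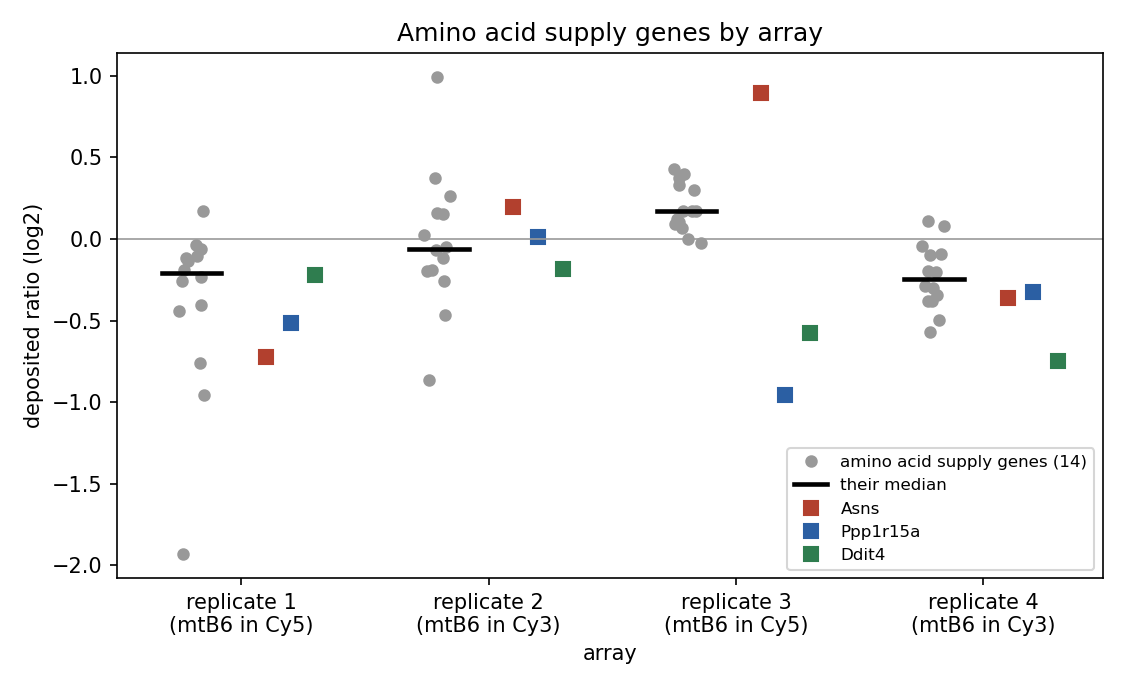
Deposited log2 ratio on each array for the 14 measured amino acid supply genes (grey points, bar at their median) and for Asns, Ppp1r15a and Ddit4 (squares). On replicate 3 the grey points and Asns lie mostly above 0, while Ppp1r15a and Ddit4 lie at -0.96 and -0.58.

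Ppp1r15a and Ddit4 were thus on the negative side on replicate 3, where Asns and 13 of 14 amino acid supply genes were on the positive side. That opposition was seen in the values and was not tested. The other arms of the unfolded protein response, which run through ATF6 and XBP1, had a median of -0.03 with 6 of 10 genes below 0. Ern1, the sensor that splices Xbp1, had 0.20 ± 0.11 and an unadjusted p of 0.0244, with an adjusted p of 0.99967 in limma, on a spot dim on 2 arrays. Creld2, a target induced with the chaperones, had -0.19 ± 0.14. Of 7 measured family members of the 10 genes, 4 were below 0. Lrp8, a relative of Vldlr, had 1.39, 0.32, 0.03 and -0.02 on replicates 1 to 4, and Chac2, the relative of Chac1, had a mean of 0.11 ± 0.10. Over all 66 pathway genes outside the 10, 41 had a mean below 0 and 25 above, with a median of -0.03, where 50.5% of all genes were below 0. At an unadjusted p under 0.05 there was 1 on either side, where the shares of all genes were 2.05% negative and 1.59% positive, and 0 of 66 passed an adjusted p of 0.05 in limma.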

How the data were processed

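Per the submitters' processing notes the authors used limma, with no version given. The deposited table holds 1 log2 ratio per spot and array; how background was corrected, arrays normalized or spots filtered is not given in the sources used here. No source used here names the logarithm base. Base 2, in which limma writes ratios, was assumed, and the fold values rest on it. Of 171 spots with no gene and a ratio of at least 0.6 in size on all arrays, 163 alternated with the dye and 0 kept 1 sign. What these spots hold is not given. They cannot decide the reading, since line differences in ratios that were not turned would also alternate. Reading the deposited ratios as turned to 1 direction between the lines is an assumption. Under it, 3.64% of all genes had an unadjusted p under 0.05 in limma for the line term and 8.97% for the dye term.

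Of 45220 spots, 33653 had 1 gene in the platform annotation, 56 several and 11511 none. Symbols were updated by gene ID through RefSeq (GRCm38.p6), where 18966 of 19087 genes matched. Spots of a gene were averaged. The fit used limma 3.58.1 in R 4.3.3 (lmFit and eBayes) with a line and a dye term (2 residual degrees of freedom) and Benjamini-Hochberg adjustment over all genes. It was tested on simulated data. Calls were required there only for the largest simulated differences. Whether differences as small as those of the listed genes would be called is not shown by that test. Each array pairs 1 sample of each line, and with 4 arrays their number limits precision. Fits without a replicate kept the dye term and had fewer residual degrees of freedom. Their p values rest on the orientation that kept both arrays.

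The 10 genes and all lists were chosen with earlier results of these data known. Named were the 10 genes, the 4 kinases and the 2 genes of smallest p of each list. Also named were the 3 genes closest to each of the 3 members with the largest root mean square ratio, clone names left out. Genes listed for a pathway but with no named spot were not analysed here. Alternatives covered the dye term, turning, the median over spots, never dim spots, scaling of arrays, a robust variance prior, single spots and leaving out each replicate.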

Additional observations from a re-analysis of the deposited data

How the results depend on the processing

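None of the 10 genes measured under an alternative passed an adjusted p of 0.05 for the line. The dye term was computed for the median of spots, never dim spots, scaled arrays, the robust prior and single replicates left out, and 0 passed there. Of 111 gene values under an alternative, 100 had the sign of the main fit. Many of these could not change sign, so that count overstates stability. Without the dye term, with the median of spots or with the robust prior, each mean equals the main mean by construction. For genes with 1 spot, the same holds for never dim spots and single spots. The smallest adjusted p in limma was 0.490, for Ppp1r15a without replicate 1. For ratios taken as not turned, replicates 2 and 4 were reversed, and reversing 1 and 3 instead would swap every sign. The numerator of the main values is unknown, so the signs of that alternative cannot show stability. Outside it, Atf4, Ddit4, Trib3, Chac1, Ppp1r15a and Cebpb kept their sign throughout. Taking the deposited ratios as not turned moved the count of genes below 0 from 8 to 5. The count at an unadjusted p under 0.05 in limma went from 2 to 1, which was Ddit3. The share of all genes at that threshold went from 3.64% to 8.97%. Under the choice made there, signs differed for Atf4 (-0.079), Atf5 (0.084), Ddit3 (0.47), Ddit4 (0.034) and Trib3 (0.12). Without single replicates the count below 0 was 7 to 9. The count at an unadjusted p under 0.05 in limma was 1 to 3, lowest without replicate 4, where Cebpb was the gene. The shares of all genes at that threshold were 8.27%, 2.23%, 8.27% and 2.46% without replicates 1 to 4. Without single replicates the mean ranged from -0.18 to 0.024 for Atf5, with the sign turned without replicate 1 (4.14e-04) or 2, from -0.25 to 0.018 for Ddit3, turned without replicate 4, and from -0.40 to 0.41 for Asns, turned without replicate 2 (-0.14) or 3. The second Vldlr spot alone had 0.014. Among the 14 amino acid supply genes, the count below 0 without single replicates, an alternative chosen after seeing the data, was 4 to 13. The cause of these shifts was not tested beyond the samples left out. Each ratio already compares the samples of 1 replicate number, so the values given are paired. An unpaired analysis to set beside them was not possible, since no level of a gene in either line was available. Both Vldlr spots were dim, so that gene has no value on never dim spots.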

Other observations

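The deposited values of the arrays were written with different precision. Values of replicates 1 and 3, with mtB6 in Cy5, had up to 10 digits, and more than 7 digits in 92.4% and 91.9% of spots. Values of replicates 2 and 4, with mtB6 in Cy3, had at most 6 digits. Whether the arrays of the 2 dye orientations went through the same steps before deposit was not tested.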
